A study of Mus musculus with 12 samples.

Results

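The insulin receptor cascade genes followed here are Insr, Irs1, Irs2, Pik3r1, Akt1, Akt2 and Grb14. Every row of the peak table whose listed gene is one of these 7 was taken, which gave 96 of 52530 peaks. Pik3r1 had 29 peaks, Irs2 16, Grb14 15, Irs1 13, Insr 11, Akt2 8 and Akt1 4. ATAC-seq measures how accessible chromatin is through a transposase that inserts sequencing adapters into open DNA, so that a peak holds more reads where more nuclei are open at that place. All peaks were 200 bp wide, and a level is the number of reads in a peak after the authors' scaling of each library (normalized reads).

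The nuclei came from the livers of 6 female HEP-INTACT mice, and all 4 groups share this sex and genotype. In INTACT a tag on the nuclear envelope of one cell type lets its nuclei be pulled out of a mixed tissue on beads, here those of hepatocytes, and the sources used here do not give the promoter that drives the tag. Fasted mice (n = 3) had no food for 16 h from ZT12, when lights go off and mice begin to feed, and fed mice (n = 3) had food at all times and were killed at the same hour. By the labels each mouse contributed nuclei of both fresh and frozen liver, giving the 4 groups fed fresh, fasted fresh, fed frozen and fasted frozen, with 3 libraries in each. The sources used here do not give the ages of the mice.

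When insulin binds the receptor encoded by Insr on a hepatocyte, the receptor phosphorylates the adaptor proteins IRS1 and IRS2. These recruit phosphoinositide 3-kinase through its regulatory subunit, p85α, encoded by Pik3r1, and the lipid that this kinase makes brings AKT1 and AKT2 to the membrane, where they are activated. In liver, AKT signalling is known to hold back glucose production through FOXO1 and to raise glycogen and lipid synthesis. GRB14 binds the active receptor and inhibits it. Insulin falls in fasting, and transcription of Irs2 is a known target of FOXO1 and of cAMP signalling in the fasted liver.

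The start regions of Irs1 and Irs2 are shown because these genes shared a motif pair there. Those of Akt2 are shown because a fall in fasting was called at the internal start but no change at the upstream one. Whether the fasting differences at these Akt2 starts were unlike each other was not tested. Each run is the 150 bases before a RefSeq start on the gene's strand, 5′ to 3′, from RefSeq's promoter table for GRCm38.p6, the assembly of mm10. Capitals mark CACGTG, the E-box core, and TGTTTTG, the core of the insulin response sequence that forkhead factors are known to bind.
Irs1, chr1:82291440-82291589, minus strand: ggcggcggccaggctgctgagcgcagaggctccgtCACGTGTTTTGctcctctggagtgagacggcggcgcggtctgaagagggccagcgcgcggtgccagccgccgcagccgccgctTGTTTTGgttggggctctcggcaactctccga
Irs2, chr8:11008930-11009079, minus strand: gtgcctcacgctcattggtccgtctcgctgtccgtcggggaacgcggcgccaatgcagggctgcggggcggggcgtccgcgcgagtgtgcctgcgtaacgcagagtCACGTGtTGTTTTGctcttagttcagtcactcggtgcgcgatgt
Akt2, the upstream start, chr7:27591402-27591551, plus strand: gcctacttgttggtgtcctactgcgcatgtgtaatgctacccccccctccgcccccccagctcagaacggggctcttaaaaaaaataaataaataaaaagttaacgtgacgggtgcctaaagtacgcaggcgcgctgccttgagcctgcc
Akt2, the internal start, chr7:27605647-27605796, plus strand: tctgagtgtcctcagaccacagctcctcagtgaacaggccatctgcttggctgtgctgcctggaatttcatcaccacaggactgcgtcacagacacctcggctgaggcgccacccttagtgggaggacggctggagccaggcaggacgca

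In Irs1 the E-box began 115 bases before the start and a TGTTTTG 111 bases before it, so that the matches overlap, and another TGTTTTG began 32 bases before the start. In Irs2 an E-box began 44 and a TGTTTTG 37 bases before the start. The E-box and the TGTTTTG next to it lay inside the start peak of each gene, chr1:82291499-82291699 for Irs1 and chr8:11008908-11009108 for Irs2. Of 32544 RefSeq windows of 300 bases (250 before and 50 after a start), 7.17% held the E-box and 6.32% held TGTTTTG on either strand. These letters were searched for after the windows had been read. Of 6 motifs chosen earlier, forkhead GTAAACA (in 3.66% of all windows), glucocorticoid receptor core ACANNNTGT (6.83%), CRE TGACGTCA (1.8%), C/EBP TTGCNNAA (10.8%), HNF4 CAAAGTCCA (0.479%) and SREBP TCACCCCAC (0.556%), the 11 windows of 6 members held a single match, a forkhead match on the opposite strand in the window of an Akt1 start. It began 161 bases before that start, outside every peak of the table listed for these genes. The Insr window was not analysed here. The bases before the internal start of Akt2 that is shown held 5 CpG and those before its upstream start 8, against 18 for Irs1 and 20 for Irs2.

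The libraries held from 3.69 to 14.5 (in units of 1e+06) reads in peaks, and their median peak from 51 to 217 reads. The share of reads within 1 kb of a gene start was 44.5% to 44.8% in fed fresh, 47.0% to 48.0% in fasted fresh, 45.6% to 47.2% in fed frozen and 48.5% to 49.4% in fasted frozen libraries, so it moved with fasting and with freezing, and its part in the results below was not tested. Of 10 hepatocyte markers, 9 (all but Ttr) had a peak within 1 kb of their start, with a summed level of 1984 to 2017 in fed fresh, 2161 to 2310 in fasted fresh, 2588 to 2783 in fed frozen and 2959 to 3291 in fasted frozen libraries. No start peak was listed for any of 6 macrophage, 7 endothelial or 5 lymphocyte markers. Of 6 stellate markers only Reln had one (51.2 to 134 over the libraries), and of 5 bile duct markers only Sox9 (65.1 to 137). At any distance, the 10 hepatocyte markers had 108 peaks. Endothelial markers had 16 (5 genes), stellate 4 (2), bile duct 4 (3), macrophage 2 (2) and lymphocyte markers 1 (1). In bulk libraries, fewer nuclei open at a place and shorter opening in each nucleus cannot be told apart. A peak is listed with the gene whose start is nearest, which need not be the gene it acts on.

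Across the 7 genes, the largest falls in fasting were larger than the largest rises. Among all peaks, too, falls past 1 on the log2 scale were more frequent than rises of that size. Of the 7 such falls at these genes, 4 lay in introns and 2 in intergenic sequence, which held 51 and 27 of the 96 peaks. The table names the libraries of each group by letters A to C, and the fresh and frozen library of one letter and feeding state were averaged as 1 replicate, for reasons given with the processing. On these means, 3 against 3 and with limma and an adjusted p under 0.05 as the call, 9 of the 96 peaks rose and 20 fell, where 16.5% of all peaks rose and 18.1% fell. The median log2 difference, fasted minus fed, was -0.02 over the 96 peaks and 0.05 over all peaks. The falls reached -3.41 and the rises 0.80, and 7 falls but no rise were past 1 on the log2 scale, where 5.62% of all peaks fell and 1.53% rose by that much. Under all alternatives run, 14 of the 20 falls and 1 of the 9 rises kept their call. Some of these, including the rise at Pik3r1, lay in the 25% of peaks with the lowest mean. So did the falls of -3.41 at Akt1, -1.97 at Grb14 and -1.66 at Akt2. The alternative without those low peaks did not test them. How many rises and falls over all peaks kept their call under every alternative was not counted. The 6 fasted and 6 fed libraries did not overlap at 13 of the 96 peaks, 10 lower and 3 higher in fasting, against 12.9% of all peaks. When libraries were instead scaled to a common median over peaks within 1 kb of a gene start, the median of all peaks moved to -0.08, and 2 of the 96 peaks rose and 24 fell, against 7.74% and 24.5% of all peaks under that scaling. With quantile normalization 9 rose and 19 fell, against 18.5% and 17.9%. The count of 29 calls went to 19 without fed letter A, 18 without fed B and 17 without fasted A, and to 16 of 75 peaks when the 25% of peaks with the lowest mean were left out. Calls over all 52530 peaks also became fewer without a letter, from 8678 rises and 9485 falls. There were 5435 and 6924 without fed A, 5023 and 6477 without fed B and 4939 and 7472 without fasted A. Without the low peaks, 6470 of all 39397 remaining peaks rose and 5310 fell.

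**Figure D1:**
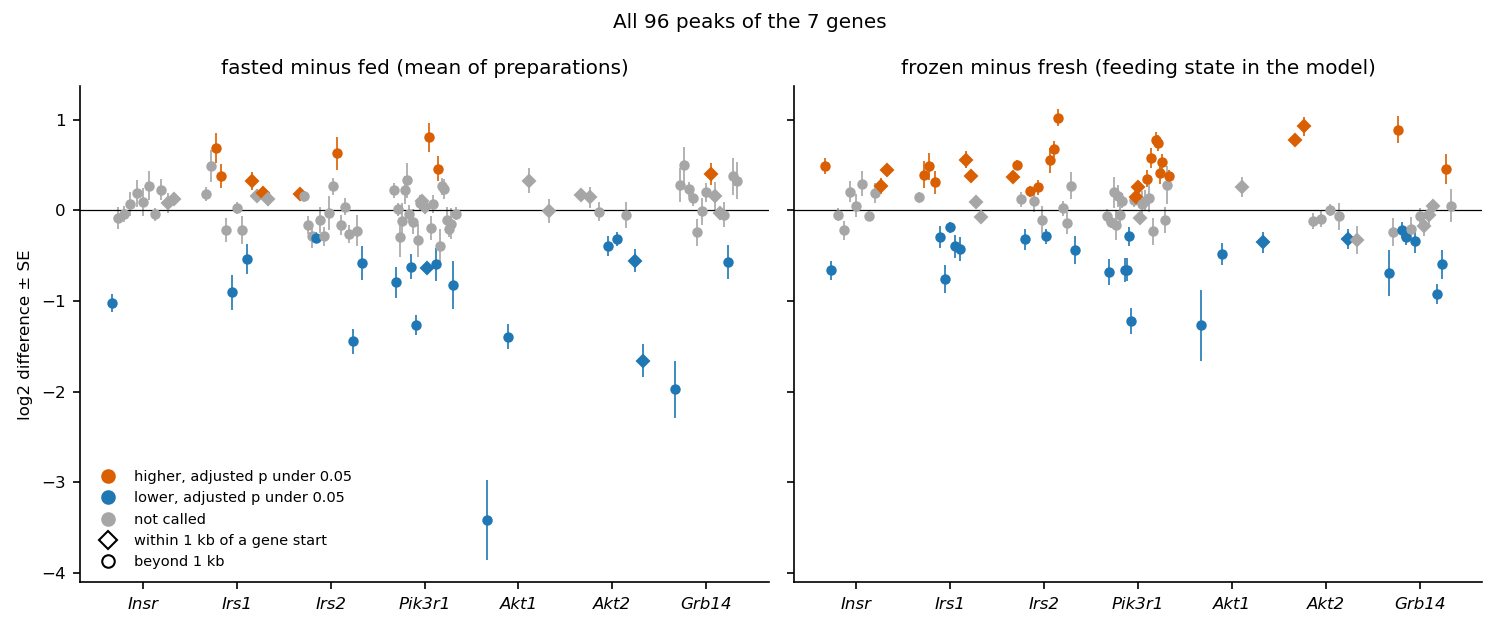
Log2 difference ± SE of each of the 96 peaks, ordered by position within each gene, for fasted minus fed (left, 3 against 3 letters) and frozen minus fresh (right, 12 libraries with feeding state in the model). Colours mark calls and diamonds mark peaks within 1 kb of a gene start. The falls in fasting reach -3.41 at Akt1, whereas no rise exceeds 0.80.

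By gene, 1 of 11 Insr peaks fell and none rose, 4 of 13 Irs1 peaks rose and 2 fell, and 2 of 16 Irs2 peaks rose and 3 fell. Of the 29 Pik3r1 peaks 2 rose and 6 fell, and of the 15 Grb14 peaks 1 rose and 2 fell. At Akt1 2 of 4 peaks and at Akt2 4 of 8 peaks fell, and none rose. The median log2 difference ranged from -0.70 at Akt1 to 0.16 at Irs1 and Grb14. Within 1 kb of a start 4 of 19 peaks rose and 3 fell, where 19.7% and 4.59% of all such peaks did. Farther away 5 of 77 rose and 17 fell, where 14.8% and 25.4% of all such peaks did. Inside the RefSeq body of their own gene lay 54 peaks. Of the other 42, 10 lay in another gene only, among them 4 listed for Grb14 in introns of Cobll1. All 16 Irs2 peaks lay outside the body of Irs2.

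**Figure D2:**
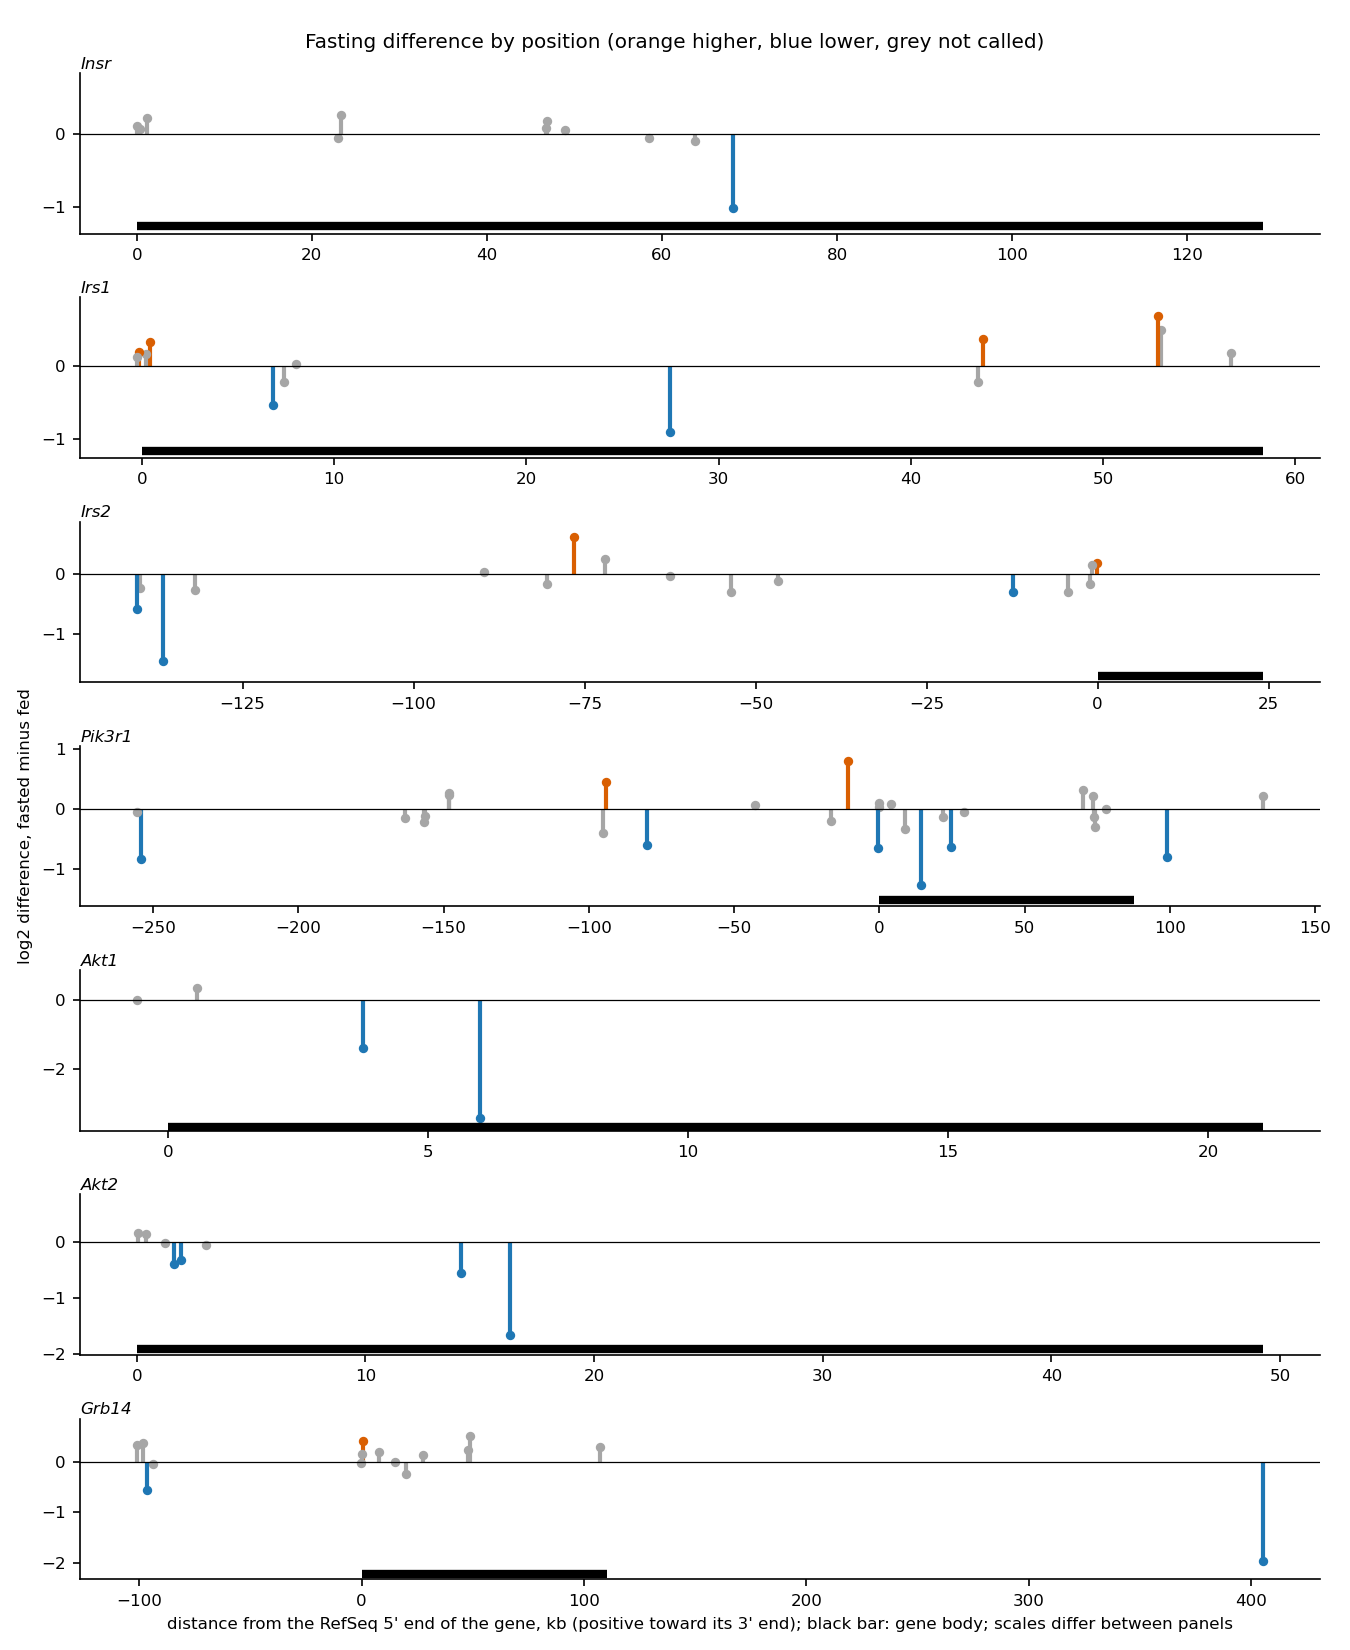
Log2 difference, fasted minus fed, of each peak (vertical axis) against its distance in kb from the RefSeq 5′ end of its gene (horizontal axis, positive toward the 3′ end), with the gene body as a black bar and a scale of its own for each gene. Orange peaks were called higher, blue lower and grey neither. Deep blue falls lie, among other places, at 3.745 and 5.997 kb in Akt1, 68.1 kb in Insr, -136.6 kb at Irs2 and 405.6 kb at Grb14.

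Insr encodes the receptor, and on the mean of both preparations 1 of its peaks changed in fasting. The peak chr8:3211481-3211681, at exon 3 of 21 and 68.0 kb from the listed start, held 108, 117 and 114 in fed fresh, 63.1, 62.3 and 56.5 in fasted fresh, 167, 182 and 176 in fed frozen and 80.99, 75.8 and 75.7 in fasted frozen libraries (letters A, B and C in this order here and below). Fed libraries lay above fasted ones with no overlap, and frozen fed libraries above fresh fed ones. The mean fell from 144 ± 5.91 to 69.1 ± 2.98 (SD, n = 3 letters), a log2 difference of -1.03 ± 0.10 (SE) with an adjusted p of 0.000207. At the start peak, chr8:3279479-3279679, the levels were 245, 262 and 246 in fed fresh, 259, 250.4 and 281 in fasted fresh, 292, 358 and 339 in fed frozen and 340.4, 398 and 376 in fasted frozen libraries. Fed and fasted libraries overlapped there, with a log2 difference of 0.12 ± 0.07 (SE) and an adjusted p of 0.194, so a difference at the start was not shown. The other 9 Insr peaks were called in neither direction on the mean of both preparations. Within frozen liver 1 of them, chr8:3278424-3278624 in intron 1, 1.09 kb from the start and named after its values were seen, held 64.3, 71.7 and 80.6 in fed and 90.1, 100.2 and 93.5 in fasted libraries. It rose there by 0.39 ± 0.14 (SE) on the log2 scale (adjusted p = 0.0419), a call lost under 8 of 11 alternatives, with adjusted p up to 0.170.

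Irs1, the adaptor best known from muscle and fat but also used in liver, had falls inside its long intron 1. It also had small rises at its start, and rises toward the far end of the intron. The peak with the lowest p, chr1:82263852-82264052, 27.5 kb into the gene, held 75.4, 69.04 and 63.1 in fed fresh, 45.5, 41.04 and 32.8 in fasted fresh, 53.6, 38.2 and 41.2 in fed frozen and 26.4, 20.05 and 17.8 in fasted frozen libraries. Within each preparation every fed library was above every fasted one, but the fed frozen and fasted fresh libraries overlapped. Its level fell from 56.8 ± 6.76 to 30.6 ± 5.32, a log2 difference of -0.91 ± 0.20 (SE) with an adjusted p of 0.00717. In the opposite direction, chr1:82238490-82238690, 52.8 kb into the gene, held 55.9, 33.2 and 37.5 in fed fresh, 69.9, 58.2 and 70.1 in fasted fresh, 61.9, 68.5 and 43.8 in fed frozen and 112, 95.02 and 77.9 in fasted frozen libraries. Within each preparation the fasted libraries were the higher ones. The mean rose from 50.1 ± 9.17 to 80.5 ± 9.12, a log2 difference of 0.69 ± 0.17 (SE) with an adjusted p of 0.0121. This peak shares bases with its neighbour at chr1:82238322-82238522, which had a log2 difference of 0.49 (adjusted p = 0.0542). Within frozen liver alone that neighbour was called higher, by 0.73 ± 0.20 (SE) with an adjusted p of 0.0101. Under the 11 alternatives this frozen call was kept, with adjusted p up to 0.0460. Without the libraries of fasted letter A the rise at chr1:82238490-82238690 had an adjusted p of 0.0567.

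A further intronic peak of Irs1, chr1:82284520-82284720, 6.82 kb from the start, held 87.9, 65.1 and 78.9 in fed fresh, 61.8, 54.02 and 47.5 in fasted fresh, 64.3, 57.3 and 54.3 in fed frozen and 41.9, 45.3 and 31.2 in fasted frozen libraries. It fell by 0.53 ± 0.17 (SE) on the log2 scale (adjusted p = 0.0321), with the fed and fasted libraries overlapping across preparations. The start peak, chr1:82291499-82291699, 160 bp upstream, is the one that holds the E-box and its neighbouring TGTTTTG. Its levels were 282, 242 and 273 in fed fresh, 314, 309.6 and 305 in fasted fresh, 284, 280.3 and 304 in fed frozen and 318, 336 and 314 in fasted frozen libraries, and the fasted libraries all lay above the fed ones. The mean rose from 278 ± 14.6 to 316 ± 6.58, a log2 difference of 0.19 ± 0.06 (SE) with an adjusted p of 0.0406. This small rise was no longer called under either other scaling, nor without letter A or B of either feeding state, with adjusted p up to 0.465. The call on the peak at 6.82 kb was lost with quantile normalization and without any letter but fasted B, with adjusted p up to 0.123.

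Irs2 encodes the adaptor that follows feeding most closely in liver. Its clearest fall was far upstream, at chr8:11145385-11145585, in intergenic sequence 137 kb from the listed start and 52.9 kb from Col4a1, the nearest other protein-coding gene. The levels were 127, 133 and 136 in fed fresh, 50.9, 44.7 and 63.3 in fasted fresh, 125, 142 and 127 in fed frozen and 33.7, 47.1 and 51.2 in fasted frozen libraries. The lowest fed library, at 125, was above the highest fasted one, at 63.3, and freezing was not called at this peak. The mean fell from 132 ± 5.64 to 48.5 ± 7.80, a log2 difference of -1.45 ± 0.14 (SE) with an adjusted p of 0.000194. A smaller fall was found 12.9 kb upstream, at chr8:11021268-11021468, inside the noncoding gene 9530052E02Rik beside Irs2. There the levels were 277, 272 and 275 in fed fresh, 243, 233 and 243 in fasted fresh, 331, 360.0 and 336 in fed frozen and 228, 279.8 and 267 in fasted frozen libraries. It fell by 0.30 ± 0.06 (SE) on the log2 scale (adjusted p = 0.00515), with no overlap within a preparation and an overlap across them.

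Between these places the peak chr8:11085374-11085574, 77.04 kb upstream of Irs2, rose. It held 35.5, 59.7 and 55.2 in fed fresh, 71.3, 67.5 and 77.98 in fasted fresh, 53.6, 73.3 and 81.5 in fed frozen and 99.2, 113 and 125 in fasted frozen libraries, so that fasted libraries were the higher ones within each preparation. The mean went from 59.8 ± 13.2 to 92.3 ± 8.20, a log2 difference of 0.63 ± 0.18 (SE) with an adjusted p of 0.0222, and the call was lost with scaling to start peaks and without fed letter A (adjusted p up to 0.0564). The start peak, chr8:11008908-11009108, with the E-box and TGTTTTG, held 287, 283 and 294 in fed fresh, 329, 315 and 324 in fasted fresh, 329, 406 and 369.7 in fed frozen and 420.4, 409.7 and 434 in fasted frozen libraries. The mean rose from 328 ± 18.7 to 372 ± 8.62, a log2 difference of 0.18 ± 0.06 (SE) with an adjusted p of 0.0386. That call was lost under both other scalings and without any letter but fasted B, with adjusted p up to 0.54. The file lists this peak as 578 bp upstream of a start, whereas its centre is 0.079 kb upstream of the RefSeq start used for the sequence above.

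Pik3r1, whose product p85α binds phosphorylated IRS proteins and holds the catalytic subunit, had the most peaks. The lowest p belonged to chr13:101753790-101753990 in intron 2, 14.3 kb from the start, which held 217, 228 and 239.8 in fed fresh, 124, 101 and 81.4 in fasted fresh, 211, 183 and 204 in fed frozen and 85.5, 61.9 and 86.8 in fasted frozen libraries. The level fell from 214 ± 8.11 to 90.2 ± 12.8, a log2 difference of -1.26 ± 0.11 (SE) with an adjusted p of 0.000143, with no overlap of fed and fasted libraries. In the promoter a fall was called upstream of the start but not on the start itself. At chr13:101768640-101768840, 523 bp upstream, the levels were 277, 258 and 258 in fed fresh, 192, 194 and 192 in fasted fresh, 273, 299 and 281 in fed frozen and 166, 169 and 145 in fasted frozen libraries. There it fell from 274 ± 4.58 to 176 ± 6.91, a log2 difference of -0.64 ± 0.07 (SE) with an adjusted p of 0.000249.

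At the Pik3r1 start itself, chr13:101768104-101768304, the levels were 299, 295 and 295 in fed fresh, 331, 299 and 376 in fasted fresh, 347, 336 and 349.6 in fed frozen and 330.3, 356 and 374 in fasted frozen libraries. Fed and fasted libraries overlapped, with a log2 difference of 0.10 ± 0.07 (SE) and an adjusted p of 0.243. That peak shares bases with chr13:101768213-101768413, for which the difference was 0.03 (adjusted p = 0.739). Whether the difference 523 bp upstream and the one at the start were unlike each other was not tested. Farther upstream, chr13:101779006-101779206, 10.9 kb from the start, held 58.6, 53.1 and 55.9 in fed fresh, 81.4, 68.6 and 96.1 in fasted fresh, 39.3, 50.97 and 56.1 in fed frozen and 83.7, 96.8 and 134 in fasted frozen libraries. It rose from 52.3 ± 3.52 to 93.3 ± 18.6, a log2 difference of 0.80 ± 0.16 (SE) with an adjusted p of 0.00445, and the fasted libraries lay above all fed ones. Its call held under all alternatives run. The remaining falls of Pik3r1 ranged from -0.60 at 80.1 kb upstream to -0.83 at 254 kb upstream. The call at 80.1 kb was lost under 3 of 11 alternatives (adjusted p up to 0.121). The one at 254 kb was lost under 4 of 10 (adjusted p up to 0.123).

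Akt1, the broadly expressed AKT kinase, had both of its large falls in an intron close to its start. The peak chr12:112671039-112671239 in intron 2 of 13 held 331, 379.7 and 324 in fed fresh, 151, 151 and 131 in fasted fresh, 229, 309 and 286 in fed frozen and 94.6, 127 and 66.8 in fasted frozen libraries. Its level fell from 309.7 ± 32.5 to 120.3 ± 20.2, a log2 difference of -1.39 ± 0.14 (SE) with an adjusted p of 0.000206, and no fasted library reached the lowest fed one. The other, chr12:112668787-112668987 in the same intron, was the steepest fall of the 96 peaks. It held 70.1, 87.6 and 59.8 in fed fresh, 6.79, 14.03 and 6.78 in fasted fresh, 36.9, 46.2 and 42.9 in fed frozen and 0, 6.10 and 2.23 in fasted frozen libraries. Of the fasted frozen libraries, 1 had no read there, which at its depth allows a level of up to 2.73 normalized reads (3 reads). The mean fell from 57.3 ± 8.42 to 5.99 ± 3.57, a log2 difference of -3.41 ± 0.44 (SE) with an adjusted p of 0.000629. Over the alternatives it ranged from -3.90 to -2.57.

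At the Akt1 start, chr12:112674225-112674425, the levels were 106, 88.96 and 114 in fed fresh, 121, 150.1 and 134 in fasted fresh, 108, 111 and 174 in fed frozen and 147, 163 and 154 in fasted frozen libraries. Fasted libraries were the higher ones in fresh liver, but fed C of the frozen libraries had the highest level of all. The log2 difference was 0.33 ± 0.13 (SE) with an adjusted p of 0.0809, which did not pass. The fourth Akt1 peak had no call for fasting.

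Akt2, the AKT kinase that carries most of the insulin signal to glucose metabolism in liver, had its falls around internal starts and in intron 1. The deepest fall lay near the start at chr7:27607336, whose bases are not shown, and another on the internal start shown above (chr7:27605797). The peak chr7:27607774-27607974, 538 bp downstream of a start inside the gene and 16.3 kb from the upstream start, held 94.1, 129 and 127 in fed fresh, 38.00, 46.2 and 31.6 in fasted fresh, 72.7, 137 and 92.9 in fed frozen and 28.2, 26.2 and 31.2 in fasted frozen libraries. The highest fasted library, at 46.2, was below the lowest fed one, at 72.7. Its level fell from 109 ± 24.8 to 33.6 ± 2.43, a log2 difference of -1.66 ± 0.18 (SE) with an adjusted p of 0.000313. The peak on the internal start shown above, chr7:27605630-27605830, held 133, 151 and 109 in fed fresh, 108, 95.1 and 97.2 in fasted fresh, 124, 134 and 99.00 in fed frozen and 63.7, 65.4 and 84.6 in fasted frozen libraries. It fell from 125 ± 19.5 to 85.6 ± 5.33, a log2 difference of -0.55 ± 0.13 (SE) with an adjusted p of 0.0102, with an overlap between fed frozen C and fasted fresh A.

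Another Akt2 peak that fell, chr7:27593373-27593573, 1.92 kb from the upstream start, held 167, 195 and 196 in fed fresh, 146, 159 and 154 in fasted fresh, 194, 188 and 192 in fed frozen and 157, 133 and 158 in fasted frozen libraries. Its log2 difference of -0.32 ± 0.07 (SE) was small (adjusted p = 0.00963), yet fed and fasted libraries did not overlap. The peak on the upstream start, chr7:27591496-27591696, held 164, 143 and 161 in fed fresh, 192, 176 and 171 in fasted fresh, 263, 287 and 268 in fed frozen and 302, 290.3 and 307 in fasted frozen libraries. Its log2 difference was 0.17 ± 0.06 (SE) with an adjusted p of 0.0648, so no change with fasting was called, while the frozen libraries lay far above the fresh ones. Its neighbour at chr7:27591858-27592058 also had no fasting call (0.14, adjusted p = 0.353).

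Grb14, the inhibitor of the receptor, changed at few of its peaks. The largest change was at chr2:64617042-64617242, an intergenic peak 406 kb downstream of the start, beyond the 3′ end of the gene. It held 73.7, 63.7 and 72.3 in fed fresh, 16.3, 31.2 and 9.04 in fasted fresh, 51.2, 38.2 and 38.5 in fed frozen and 12.7, 12.2 and 6.68 in fasted frozen libraries. The mean fell from 56.3 ± 5.78 to 14.7 ± 6.92, a log2 difference of -1.97 ± 0.31 (SE) with an adjusted p of 0.00153, at levels down to 3 reads in the shallowest library. The intronic peak chr2:65022161-65022361, 505 bp from the start, held 121, 105 and 119.6 in fed fresh, 159, 132 and 131 in fasted fresh, 119, 78.04 and 88.5 in fed frozen and 149, 123 and 131 in fasted frozen libraries. It rose by 0.40 ± 0.12 (SE) on the log2 scale (adjusted p = 0.0323) with no overlap. The call was lost with scaling to start peaks and without fed B, fed C or fasted A (adjusted p up to 0.125).

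Upstream of Grb14, in an intron of Cobll1, chr2:65119236-65119436 held 85.2, 63.7 and 76.2 in fed fresh, 50.2, 64.4 and 53.1 in fasted fresh, 66.7, 39.8 and 61.3 in fed frozen and 39.1, 33.1 and 26.7 in fasted frozen libraries. It fell by 0.57 ± 0.19 (SE) on the log2 scale (adjusted p = 0.0383), and this call was lost with quantile normalization and without fed A, fed C, fasted A or fasted C (adjusted p up to 0.15). The start peak, chr2:65022802-65023002, stayed between 178 and 211 in all 12 libraries, 189, 208 and 194 in fed fresh, 198, 178 and 196 in fasted fresh, 203, 205 and 196 in fed frozen and 189, 197 and 211 in fasted frozen libraries. Its log2 difference of -0.03 ± 0.07 (SE) was not called (adjusted p = 0.730).

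**Figure D3:**
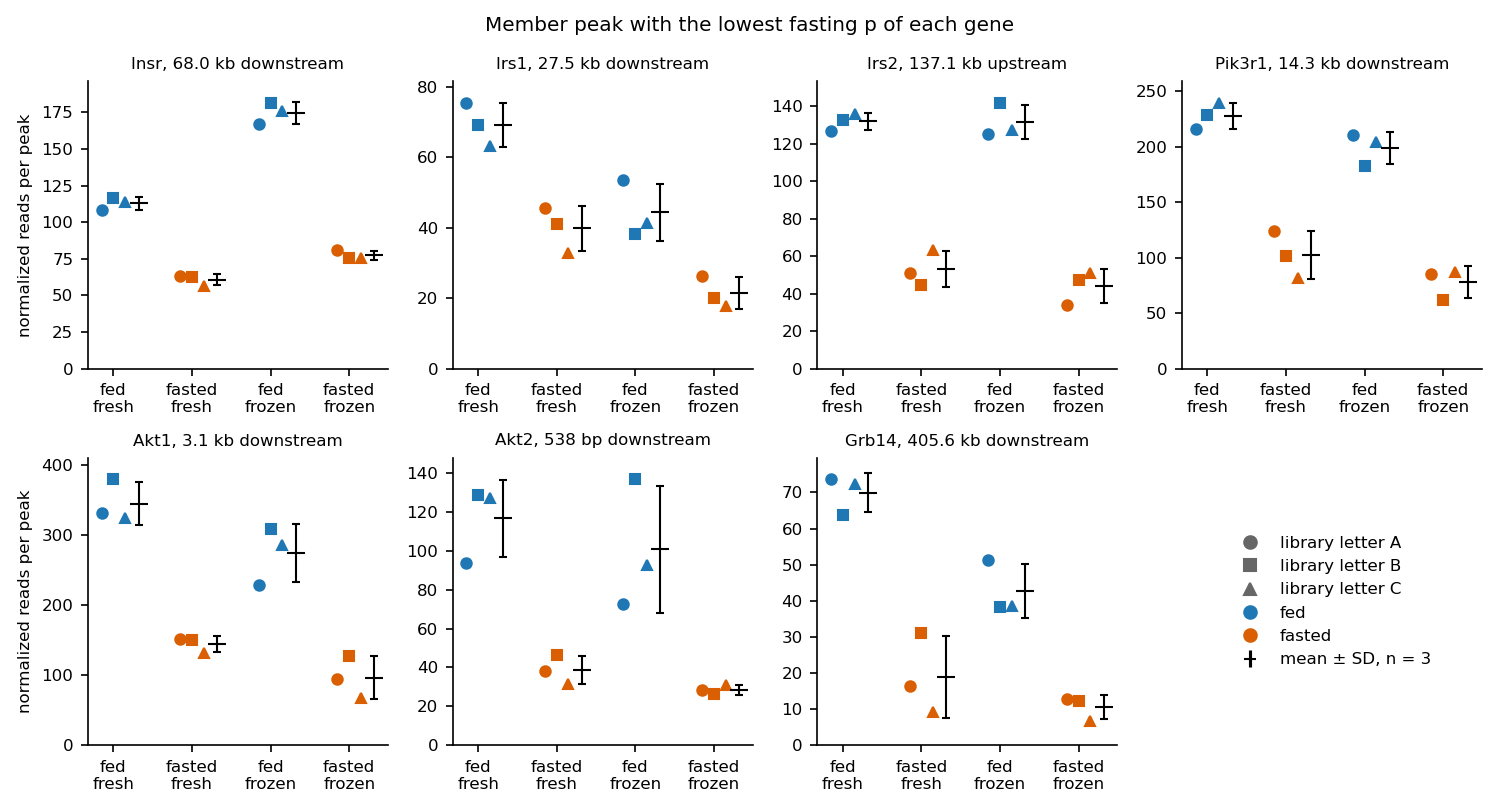
Normalized reads in the peak with the lowest fasting p of each gene (vertical axis, from 0) in the 4 groups of 3 libraries (horizontal axis), with letters as symbols and mean ± SD beside the points. In each panel the fasted libraries of a preparation all lie below its fed libraries, as in Insr, where fasted libraries end at 81.0 and fed ones begin at 108.

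Set side by side, the peaks at the gene starts showed small differences. Of the 7 start peaks those of Irs1 and Irs2 rose, by 0.19 and 0.18 on the log2 scale, and the other 5 were called in neither direction, with differences from -0.03 at Grb14 to 0.33 at Akt1. With scaling to start peaks the differences at Insr and Pik3r1 turned to -0.0028 and -0.02, still not called. Without fed letter C the Akt1 start peak was called higher, with a log2 difference of 0.48 and an adjusted p of 0.0156. The peak of lowest p was a fall in each of the 7 genes, and 4 of those falls lay inside an intron of their gene. These peaks were picked by their p in these data and the start peaks by position, so their differences cannot be compared in size. Among all peaks beyond 1 kb of a start, 25.4% fell and 14.8% rose. In mean level over all libraries the 96 peaks ranged from 31.6 to 381 normalized reads, with a median of 107 against 114 for all peaks.

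**Figure D4:**
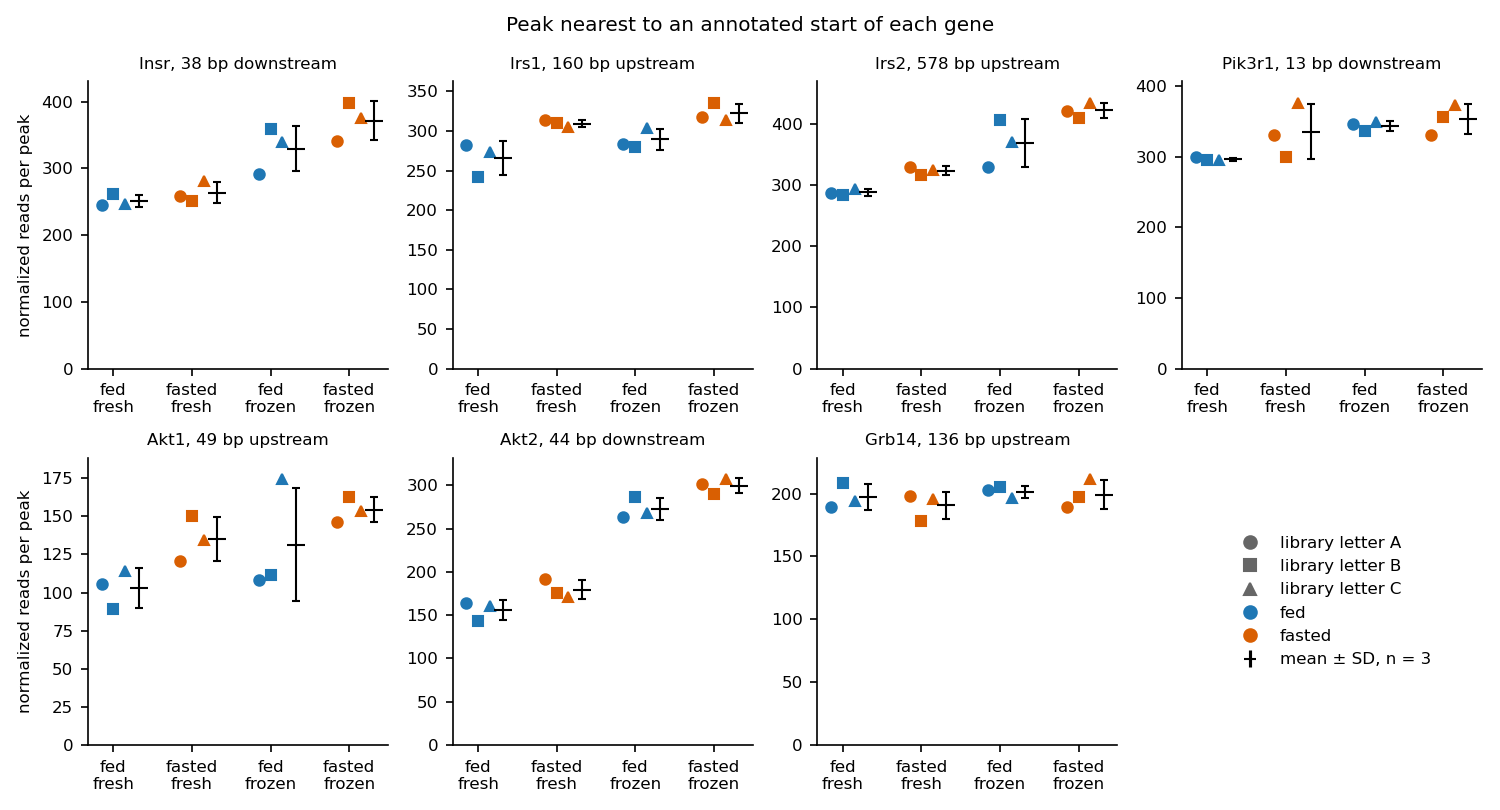
Normalized reads in the peak nearest to a start of each gene (vertical axis, from 0) in the 4 groups of 3 libraries (horizontal axis), with letters as symbols and mean ± SD beside the points. Fed and fasted libraries lie close together within each preparation, and the frozen libraries of Akt2 (263 to 307) stand above its fresh ones (143 to 192).

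The fasting comparison was then made within each preparation, which come from the same mice and so are not independent. In fresh liver 4 of the 96 peaks rose and 10 fell, against 9.39% and 12.9% of all peaks. In frozen liver 11 rose and 19 fell, against 17.3% and 18.4%. The 10 falls of fresh liver were also called in frozen liver, as were 89% of the fresh falls among all peaks. Of the 4 rises 1 was called in both, the one 52.8 kb into Irs1, against 75.1% of the fresh rises among all peaks, and no member peak was called in opposite directions. With scaling to start peaks fresh liver had 0 higher and 20 lower calls (4.61% and 18.1% of all peaks) and frozen liver 3 and 26 (8.82% and 24.8%). With quantile normalization fresh liver had 13 and 17 (16.8% and 15.8%), and frozen liver 6 and 15 (13.7% and 15.7%). Without the 25% of peaks of lowest mean 8 of 75 were called in fresh and 17 in frozen liver. Of all 39397 peaks then tested, 3425 were higher and 3435 lower in fresh liver, and 7037 and 5744 in frozen liver. At the Insr exon 3 peak the log2 difference was -0.89 ± 0.11 (SE) in fresh and -1.16 ± 0.11 (SE) in frozen liver. At the intronic Akt1 peak 3.14 kb from the start it was -1.25 and -1.54, and at the far upstream Irs2 peak -1.31 and -1.58.

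Whether fasting differences themselves differed between fresh and frozen liver was tested as an interaction, and limma called no peak of the 96 and 0% of all peaks. At an unadjusted p under 0.05 there were 2 of the 96 and 5.14% of all peaks (2702). With the letter as a replicate block none of the 96 was called either, while 187 peaks of the whole table were called higher and 208 lower, and 12 of the 96 had an unadjusted p under 0.05, against 13.1% of all peaks. The lowest p among the 96 in both fits was at the Pik3r1 peak 523 bp upstream of the start. Its log2 difference was -0.45 ± 0.08 (SE) in fresh and -0.83 ± 0.08 (SE) in frozen liver, with an adjusted interaction p of 0.781, or 0.103 with the block.

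**Figure D5:**
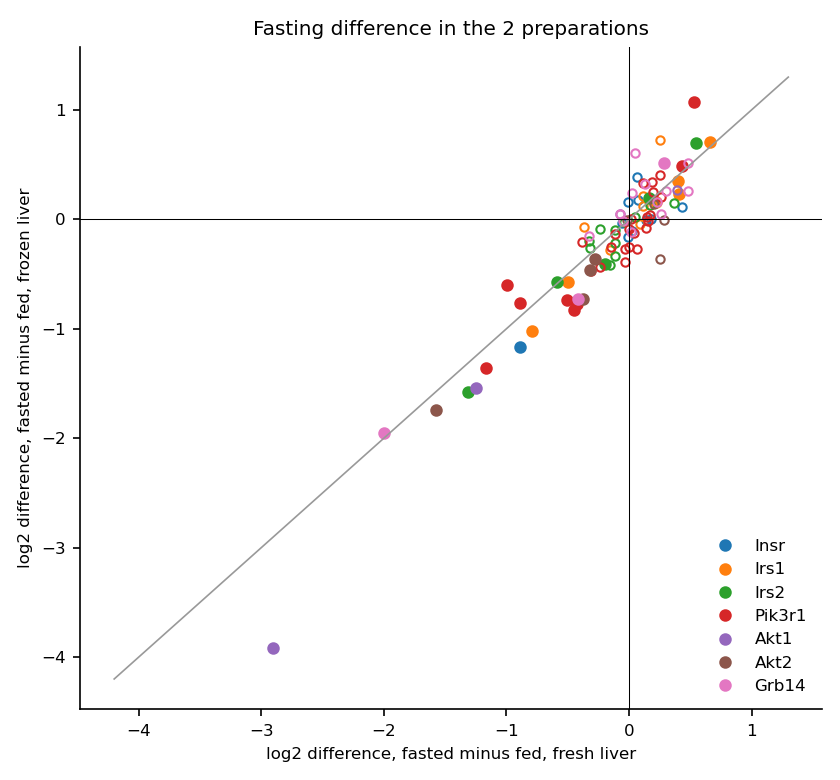
Log2 difference, fasted minus fed, of the 96 peaks in fresh (horizontal axis) and frozen liver (vertical axis), coloured by gene, filled where the mean of both preparations was called; the grey line marks equal differences. The Akt1 peak at the lower left is at -2.91 in fresh and -3.92 in frozen liver, and no interaction was called.

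Freezing was tested over all 12 libraries, and more of these peaks were called than for fasting. Fasting was tested on means per letter, 3 against 3, so these counts do not compare the sizes of the effects. Frozen minus fresh, 28 of the 96 peaks were higher and 24 lower, against 28.7% and 32.8% of all peaks, with a median log2 difference of 0.03 against -0.05. With scaling to start peaks 21 were higher and 29 lower, against 24.1% and 38.4%. The 6 frozen and 6 fresh libraries did not overlap at 15 of the 96 peaks, against 26.9% of all peaks. Higher and lower calls numbered 9 and 5 at Pik3r1, 7 and 3 at Irs2, 5 and 5 at Irs1, 3 and 1 at Insr, 2 and 1 at Akt2, 2 and 6 at Grb14 and 0 and 3 at Akt1.

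The clearest freezing difference of Irs2 was at chr8:11098518-11098718, 90.2 kb upstream. Its levels were 129, 82.3 and 109.7 in fed fresh, 124, 103 and 102 in fasted fresh, 220.4, 231 and 199.8 in fed frozen and 203, 212 and 249 in fasted frozen libraries, and all frozen libraries lay above all fresh ones, fed or fasted. The log2 difference, frozen minus fresh, was 1.02 ± 0.10 (SE) with an adjusted p of 1.68e-07, and for fasting it was 0.04. At the upstream start of Akt2 the means were 168 ± 16.2 in the 6 fresh and 286 ± 17.7 in the 6 frozen libraries (mean ± SD), a difference of 0.77 ± 0.06 (SE) with an adjusted p of 1.02e-08. At chr13:101916167-101916367, 148 kb upstream of Pik3r1, the levels were 90.5, 86.3 and 86.7 in fed fresh, 99.1, 92.98 and 109.6 in fasted fresh, 124, 156 and 152 in fed frozen and 171, 180.4 and 196 in fasted frozen libraries. Frozen libraries were higher there by 0.78 ± 0.08 (SE) (adjusted p = 4.61e-07), with no overlap.

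Going the other way, the Cobll1 intron peak listed for Grb14, chr2:65116547-65116747, held 119.8, 102 and 108 in fed fresh, 113, 96.6 and 125 in fasted fresh, 66.7, 54.2 and 60.5 in fed frozen and 60.97, 47.1 and 60.1 in fasted frozen libraries. All frozen libraries were below all fresh ones, with a log2 difference of -0.92 ± 0.11 (SE) (adjusted p = 1.31e-06). The Insr start was higher in frozen libraries by 0.44 ± 0.06 (SE) (adjusted p = 1.02e-05), again without overlap. At Irs1 the lowest freezing p was at chr1:82290916-82291116 in exon 1, 423 bp from the start, with 65.7, 62.4 and 59.1 in fed fresh, 82.1, 76.4 and 91.5 in fasted fresh, 88.2, 107 and 99.9 in fed frozen and 118, 122 and 107 in fasted frozen libraries. The difference there was 0.56 ± 0.09 (SE) (adjusted p = 6.16e-05), with the highest fresh and lowest frozen libraries overlapping. This peak was also called higher in fasting, by 0.32 (adjusted p = 0.0371), a call that was lost under 8 of 11 alternatives. The Akt1 intron peak 3.14 kb from the start was lower after freezing, with a log2 difference of -0.48 ± 0.12 (SE) (adjusted p = 0.00279).

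Calls for fasting and for freezing met at 19 of the 96 peaks, against 20.9% of all peaks. Of the 20 peaks that fell in fasting, 11 were also lower and 2 higher after freezing, where 52% and 8.59% of the falls among all peaks were. The 2 were the exon 3 peak of Insr, higher after freezing by 0.49 ± 0.08 (SE), and the Irs2 peak 12.9 kb upstream, higher by 0.21 ± 0.06 (SE). The fall of both Akt1 peaks in fasting was thus accompanied by a lower level in frozen liver, and that of the Insr peak by a higher one.

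Other genes of the pathway were counted from 4 lists, with 16.5% of all peaks higher and 18.1% lower in fasting as the background. Of 72 peaks of receptor and adaptor genes (12 of 14 genes had a peak) 19 rose and 7 fell. Among the falls were peaks of Sos1, an exchange factor for Ras (log2 difference -1.96 ± 0.24 SE, adjusted p = 0.000518), and Insrr, the insulin receptor-related receptor (-0.88). Of 88 peaks of PI3K, AKT and mTOR kinases and substrates (25 of 26 genes) 13 rose and 14 fell. Mapkap1 and Rictor encode subunits of mTOR complex 2, which phosphorylates AKT. An exonic Mapkap1 peak fell by 1.59 ± 0.14 (SE, adjusted p = 0.000166), and the Rictor promoter peak rose by 0.68 ± 0.13 (SE, adjusted p = 0.00357). An intronic peak of Foxo3, a forkhead factor that AKT keeps out of the nucleus, fell by 0.97.

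Of 97 peaks of inhibitors of insulin signalling (16 of 16 genes) 24 rose and 12 fell. The rises were mostly those of Ptpn1, which encodes the phosphatase PTP1B that removes phosphate from the insulin receptor, since 18 of its 30 peaks rose and none fell. Its peak of lowest p, 101 kb upstream, went from 88.1 ± 10.3 to 195.5 ± 10.5 (SD, n = 3), a log2 difference of 1.15 ± 0.10 (SE) with an adjusted p of 0.000164. Peaks of Ptprf, a receptor-type phosphatase (-2.11), and Socs1, a suppressor of cytokine signalling (-1.77), fell. Of 150 peaks of insulin or FOXO1 target genes (15 of 15 genes) 34 rose and 30 fell. At Srebf1, the lipogenic transcription factor that insulin induces, 13 of 15 peaks fell and none rose, and its promoter peak went from 136 ± 17.2 to 26.8 ± 1.19, a log2 difference of -2.29 ± 0.15 (SE). At Pdk4, the kinase that shuts off pyruvate dehydrogenase, 7 of 10 peaks rose and 3 fell, with 2.18 ± 0.16 (SE) at 13.7 kb upstream. Sesn3, a target of FOXO factors, had 3 rises and 2 falls among 6 peaks, with -1.25 at its peak of lowest p.

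The peaks most like the lowest-p peak of each gene were found by Pearson's r of log2 levels over the 12 libraries, which share feeding state, preparation and mouse, and r is given as a description. The 3 closest peaks of each gene had r from 0.979 to 0.993. For the Akt1 intron peak the closest was an intronic Ddc peak (0.993), and for the Akt2 peak an intergenic one listed for Txn2 (0.991). The closest to the Insr exon 3 peak was listed for Tiam2 (0.987), to the Irs1 peak for Ext1 (0.985), to the Pik3r1 peak for Snhg11 (0.987) and to the Grb14 peak for Prdm9 (0.987).

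In the authors' deposited table of fasted against fed, 2 of the 96 peaks were higher and 13 lower in fresh liver, and 7 were higher and 17 lower in frozen liver, at an adjusted p under 0.05. Over all peaks of the authors' deposited table, 8.93% were higher and 14.1% lower with fresh liver, and 13.5% were higher and 16% lower with frozen liver. Of the calls on the 96 peaks, 11 in fresh and 23 in frozen liver were also called by limma, and none in the opposite direction. For the Insr exon 3 peak the authors' deposited table gives log2 fold changes of -0.88 in fresh and -1.17 in frozen liver, and for the Irs2 peak 137 kb upstream -1.35 and -1.62.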

How the data were processed

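Per the labels' protocols, each reaction took about 25000 hepatocyte nuclei on beads, with transposition at 37 °C for 30 min and 12 cycles of PCR. The submitters' processing notes name the tools HOMER, DESeq2, SAMtools and BWA 0.7.5a-r405 and the build mm10, without their roles. How reads were shifted, deduplicated and called as peaks is not given in the sources used here. The authors deposited a table of 52530 peaks with the nearest gene and a peak score, which was not used for any test. Its signal columns hold reads per peak that the authors had divided by 1 factor per library. The log2 fold changes and adjusted p-values in the authors' deposited table come from a method the file does not state, and are quoted as such.

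All peaks entered limma 3.58.1 (R 4.3.3) as log2(value + 1), with a trended prior. Tests were two-sided, and p-values were adjusted by Benjamini-Hochberg over all 52530 peaks (threshold 0.05). In each of the 12 library columns 100% of values were whole multiples of 1 step (within 1e-06 steps), taken as 1 read, which gave the read numbers. No count model was run on these reads. The fit was tested on simulated data. Fasting was tested on means per letter, within each preparation in a fit of the 4 groups, and as an interaction. Freezing was tested over 12 libraries with feeding state as a covariate. The columns' letters A to C match no mouse number of the labels. Deviations from the group means were correlated between the fresh and frozen library of a letter (r from 0.329 to 0.640 in 6 pairs, all over the 0.1 required, highest other r 0.0213), so the pairing comes from the data.

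The members and the gene lists were chosen with earlier results of these data known. Values in every library are given for the peak nearest to each start, for up to 3 called peaks of lowest fasting p per gene and for its peak of lowest freezing p. From each list up to 3 genes are named, by their peak of lowest p, and for likeness the 3 peaks of highest r. Some that these rules pick are not reported here. Alternatives were pseudocounts of 0.5 and 5, leaving out the 25% of peaks with the lowest mean, both other scalings, leaving out each letter, and the letter as a replicate block. Reads in a peak are not independent molecules after PCR, so limits from read numbers cover counting error only.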

Additional observations from a re-analysis of the deposited data

How the results depend on the processing

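The counts of called peaks among the 96 were compared over the alternatives. Without the 25% of peaks of lowest mean, 75 of the 96 were tested, and 16 were called for fasting on the mean of both preparations (29 in the main analysis), 8 in fresh liver (14) and 17 in frozen liver (30). Over the 39397 peaks kept of the whole table, 6470 were higher and 5310 lower on that mean. In fresh liver 3425 were higher and 3435 lower, and in frozen liver 7037 and 5744. Quantile normalization gave 30 of the 96 in fresh liver, and 8827 higher and 8278 lower calls over all peaks. Leaving out 1 letter at a time gave 17 to 30 calls among the 96 for fasting on the mean of both preparations. There were 19 without fed A, 18 without fed B and 17 without fasted A. Leaving out a letter gave 10 to 15 in fresh and 22 to 32 in frozen liver, 42 to 54 for freezing (52 in the main analysis) and 0 for the interaction. Over all 52530 peaks it gave 4939 to 8053 higher and 6477 to 9619 lower calls on the mean (8678 and 9485 in the main analysis). In fresh liver these were 2563 to 4345 and 4253 to 6549 (4935 and 6780), and in frozen liver 6416 to 8373 and 7707 to 9761 (9076 and 9678). For freezing they were 13989 to 15264 and 15541 to 17503 (15093 and 17223). Pseudocounts of 0.5 and 5 kept every count within 1.5 times the main one. With the letter as a replicate block, 62 of the 96 peaks were called for freezing, 34 higher and 28 lower, and 0 for the interaction. Over all 52530 peaks, 16895 were higher and 19910 lower for freezing with the block.

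Of the peaks whose level is given for every library, fasting differences that were called kept their direction under every alternative run, and in 39 of the comparisons with an alternative the call was lost. For freezing, 27 peaks called higher and 24 called lower kept one direction. Of these, 19 and 8 were called under every alternative run on them, a count not made over all peaks. The remaining peak, on the Pik3r1 start, had a log2 difference of 0.15 that went down to -0.01. The cause of these changes was not tested, apart from there being fewer peaks or libraries in some alternatives. The median peak held 51 reads in the shallowest library, and how far this depth limits the calls was not tested.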
